A study of Mus musculus with 6 samples.

Results

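The genes described here are 10 transporters that barrier-forming endothelium uses for glucose, lipids, organic anions and thyroid hormone, for drug efflux and for iron: Slc2a1, Mfsd2a, Slc22a8, Slco1c1, Slco1a4, Slco2b1, Abcb1a, Abcg2, Abcc4 and Tfrc. They were chosen by symbol from the 24421 genes of the deposited count table, with earlier results of the same libraries known, and 10 of 10 passed the filter on low counts that left 14362 genes. Since the choice was made with this contrast in view, their values are a description. The RNA came from isolated retinal endothelial cells of mouse pups at postnatal day 7 (P7). All pups carried floxed Smad4 on a mixed BL6/CD1 background, and tamoxifen was given on day 1. The 3 Smad4-iECKO samples also carried Cdh5-CreERT2, a Cre recombinase that works in endothelial cells once tamoxifen is present, and the 3 Smad4f/f control samples carried no Cre. An effect of Cre itself therefore cannot be told apart from loss of Smad4. The labels do not say how the cells were isolated, or whether a sample held 1 pup or several, so the p-values below measure the spread between these samples, part of which may be technical.

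Retinal capillaries, like those of the brain, seal the gaps between their endothelial cells with tight junctions, so most solutes must cross the cells themselves. Uptake carriers of the SLC family bring in fuel, lipids and hormones, pumps of the ABC family use ATP to return drugs and conjugates to the blood, and receptors such as the transferrin receptor carry proteins across in vesicles. WNT/beta-catenin signalling, which acts through TCF/LEF factors on DNA, is known to switch on many of these genes in neural endothelium. SMAD4, the product of the deleted gene, is the partner that receptor-activated SMAD proteins of the BMP and TGF-beta pathways need on DNA.

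Promoter sequences are shown for 4 of the genes: Slc22a8, Slco1c1 and Mfsd2a had the lowest fold changes of the 10, and Slc2a1 was the only one with a higher mean in Smad4-iECKO. Each runs 5′ to 3′ on the gene's strand from 250 bases before a RefSeq start site to 50 bases after it (RefSeq, GRCm38.p6). The windows are chr19:8592932-8593231 on the plus strand for Slc22a8, chr6:141524104-141524403 on the plus strand for Slco1c1, chr4:122961139-122961438 on the minus strand for Mfsd2a and chr4:119108495-119108794 on the plus strand for Slc2a1. Capitals mark the TCF/LEF core (CTTTGA or CTTTGT, on either strand) in the first 3 sequences and the SMAD core CAGAC in the Slc2a1 sequence. Which core to mark was picked for each sequence with the fold changes known, so the marking shows no contrast between the genes.
Slc22a8: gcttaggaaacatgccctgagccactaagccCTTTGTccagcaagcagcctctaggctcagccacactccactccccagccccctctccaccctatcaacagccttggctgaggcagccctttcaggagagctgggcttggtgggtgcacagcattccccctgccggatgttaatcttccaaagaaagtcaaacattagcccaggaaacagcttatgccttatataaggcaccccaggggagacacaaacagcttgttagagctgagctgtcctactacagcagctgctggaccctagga
Slco1c1: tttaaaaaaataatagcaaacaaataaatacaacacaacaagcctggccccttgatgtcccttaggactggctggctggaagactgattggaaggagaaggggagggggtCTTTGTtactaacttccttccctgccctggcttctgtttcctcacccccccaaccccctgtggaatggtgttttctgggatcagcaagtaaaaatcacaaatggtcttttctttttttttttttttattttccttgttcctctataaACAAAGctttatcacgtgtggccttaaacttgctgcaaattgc
Mfsd2a: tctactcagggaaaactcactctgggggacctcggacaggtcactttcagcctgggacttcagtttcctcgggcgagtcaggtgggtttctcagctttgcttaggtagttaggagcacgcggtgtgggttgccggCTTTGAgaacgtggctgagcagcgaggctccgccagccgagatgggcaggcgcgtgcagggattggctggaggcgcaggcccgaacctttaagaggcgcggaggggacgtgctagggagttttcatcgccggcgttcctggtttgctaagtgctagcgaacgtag
Slc2a1: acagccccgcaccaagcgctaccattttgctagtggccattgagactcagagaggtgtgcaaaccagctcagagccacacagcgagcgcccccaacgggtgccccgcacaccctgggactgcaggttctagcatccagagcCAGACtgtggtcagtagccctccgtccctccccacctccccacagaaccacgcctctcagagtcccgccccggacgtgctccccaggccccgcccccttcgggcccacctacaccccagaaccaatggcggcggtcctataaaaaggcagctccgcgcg
The TCF/LEF core lay 219 bases before the start site in Slc22a8, 140 before it in Slco1c1, which held another match 7 bases after the start, and 115 before it in Mfsd2a. The SMAD core of Slc2a1 lay 109 bases before its start, and the printed windows of the other 3 genes held no CAGAC on either strand. The 10 genes had 16 RefSeq windows in all. A TCF/LEF core was in 5 of the 16, from 5 genes (Mfsd2a, Slc22a8, Slco1c1, Abcb1a and Abcc4), against 31.2% of all 32851 mouse windows. CTTTGT is also the core that SOX factors read, so the letters do not name a factor. CAGAC was in 8 of the 16, from 5 genes (Slc2a1, Slco2b1, Abcb1a, Abcg2 and Abcc4), against 49.6% of all windows, and the GC-rich SMAD core GGCGCC was in 3, from Abcg2, Abcc4 and Tfrc, against 11.9%. A hypoxia-type core (ACGTG or GCGTG) was in 7, from 6 genes, against 43.8%. Those in the Slco1c1, Mfsd2a and Slc2a1 windows are not marked above. These are matches of letters in a short window, not sites shown to be bound.

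The libraries differed in ways that the groups do not account for. Total counts ran from 12633018 to 23164952 in Smad4f/f and from 2233360 to 17677696 in Smad4-iECKO, where replicate 2 was the shallow library: 3 counts, taken as the floor of detection, equal 1.39 CPM (counts scaled to library size) there and 0.123 to 0.239 CPM elsewhere, for counting error only. Smad4 itself, the check of the labels, was at 109.5, 152.9 and 157.5 CPM in Smad4f/f replicates 1, 2 and 3 and at 128.2, 93.9 and 133.9 CPM in Smad4-iECKO replicates 1, 2 and 3. These groups overlapped (edgeR log2 fold change -0.24, standard error, SE, 0.29, unadjusted p = 0.441). The labels do not give the floxed exons, so a gene-level count need not show the deletion. All 30 genes of an endothelial list were detected. The share of counts on that list was 1.47%, 0.283% and 0.832% in the control replicates, in order, and 0.506%, 0.800% and 0.815% in the mutants, whereas 12 rod photoreceptor genes took 0.506% to 0.999% and 0.578% to 0.778%. Smad4f/f replicate 2 thus held the fewest endothelial transcripts and Smad4f/f replicate 1 the most. In bulk samples fewer cells of a type and less RNA per cell cannot be told apart. Replicate 2 of each group has a title that starts with Lit40, and the other 4 titles start with Lit38, a prefix whose meaning the labels do not give.

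Of the 10 transporters, 9 had a lower mean CPM in Smad4-iECKO, and 1, the glucose carrier Slc2a1, a higher one. The organic anion transporter Slc22a8, the thyroid hormone carrier Slco1c1 and the lipid carrier Mfsd2a stood farthest apart, at 5.29-, 4.09- and 3.93-fold lower. None passed the test across all genes. By edgeR's quasi-likelihood test with Benjamini-Hochberg adjustment 0 of 10 were called at an adjusted p under 0.05, where 0% of all 14362 genes were called. Without adjustment 188 of these genes had p under 0.05, and DESeq2 called 12 genes (0.0611% of those it tested), 0 of them among the 10. The adjusted p of all 10 was 0.9999 in edgeR. An unadjusted p under 0.05 with a lower level was found for 5 of the 10 (Mfsd2a, Slc22a8, Slco1c1, Abcg2 and Abcc4), against 0.390% of all genes, with a higher level for 0 of the 10, against 0.919%, and a log2 fold change below 0 for 9 of 10, against 51.8%. The median log2 fold change was -1.23 over the 10 and -0.017 over all genes tested. Since the genes were picked from this contrast, nothing is read from these shares.

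Slc2a1 (chr4:119108711-119137983, plus strand, mm10) encodes GLUT1, the carrier that supplies the retina and brain with glucose from blood. It was at 667.0, 287.4 and 531.4 CPM in Smad4f/f replicates 1, 2 and 3 and at 347.0, 721.9 and 599.1 CPM in Smad4-iECKO replicates 1, 2 and 3. The groups overlapped throughout, with the lowest value in a control library and the highest in a mutant one. Control and mutant means were 495.2 ± 192.4 and 556.0 ± 191.1 CPM (SD, n = 3 each), for which edgeR gave a log2 fold change of 0.17 (SE 0.42, unadjusted p = 0.700). The sign of this small difference was not stable: dropping control replicate 2 gave -0.11, dropping mutant replicate 2 gave -0.09 and dropping control replicate 1 gave 0.43. Slc2a3, the neuronal-type glucose carrier GLUT3, was low, at 16.7 ± 2.25 and 17.95 ± 9.46 CPM (SD, n = 3 each).

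Mfsd2a (chr4:122946850-122961188, minus strand) encodes the carrier that takes up lysophosphatidylcholine bearing docosahexaenoic acid and that holds vesicle transcytosis down in barrier endothelium. Its levels were 281.2, 42.5 and 180.1 CPM in Smad4f/f replicates 1, 2 and 3 against 20.6, 58.1 and 50.5 CPM in Smad4-iECKO. Smad4f/f replicates 1 and 3 lay above all mutant libraries, and Smad4f/f replicate 2 lay within their range. Group means of 167.9 ± 119.8 and 43.1 ± 19.8 CPM (SD, n = 3 each) corresponded to a log2 fold change of -1.98 in edgeR (SE 0.65, unadjusted p = 0.0141). Leaving out Smad4f/f replicate 2 gave -2.44, leaving out the shallow mutant library -2.26, and leaving out Smad4f/f replicate 1 gave -1.39. Its relative Mfsd2b, a sphingosine-1-phosphate exporter of blood cells, was low, at 4.14 ± 0.834 and 5.15 ± 1.42 CPM (SD, n = 3 each).

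Slc22a8 (chr19:8591254-8611835, plus strand) encodes OAT3, an organic anion exchanger that clears metabolites and drugs from neural tissue. In Smad4f/f replicates 1, 2 and 3 it was at 55.0, 7.86 and 40.1 CPM, and in Smad4-iECKO at 3.72, 8.83 and 7.49 CPM. As for Mfsd2a, control replicates 1 and 3 stood above every mutant library and control replicate 2 lay among them. This was the lowest log2 fold change of the 10, at -2.40 (SE 0.69) between means of 34.3 ± 24.1 and 6.68 ± 2.65 CPM (SD, n = 3 each), as edgeR fitted them. Its unadjusted edgeR p was 0.00682. The values rest on 697, 191 and 536 reads in the controls and on 67, 19 and 94 in the mutants. Dropping control replicate 2 moved the log2 fold change to -2.88, dropping mutant replicate 2 to -2.64 and dropping control replicate 1 to -1.89. Slc22a6 (OAT1), its kidney relative, had 0 reads in all 6 libraries.

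Slco1c1 (chr6:141524368-141570177, plus strand) encodes OATP1C1, which carries thyroxine into the brain. The 3 control libraries, in replicate order, showed 143.9, 57.9 and 213.7 CPM, and the 3 mutant libraries 9.05, 53.0 and 41.2 CPM. It was the only 1 of the 10 for which every mutant library lay below every control library, a pattern found in 2.83% of all genes; 0 of the 10 showed the reverse, against 2.49%. The margin was narrow, since Smad4f/f replicate 2 and Smad4-iECKO replicate 2 were at close levels. With means of 138.5 ± 78.0 and 34.4 ± 22.7 CPM (SD, n = 3 each), the edgeR log2 fold change was -2.03 (SE 0.67, unadjusted p = 0.0137). It became -2.41 when control replicate 2 was dropped, -2.49 when mutant replicate 2 was dropped and -1.57 when mutant replicate 1 was dropped.

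The other pair of organic anion polypeptides stood less far apart. Slco1a4 (chr6:141805440-141856199, minus strand) encodes the rodent carrier OATP1A4 for bile acids, steroid conjugates and drugs. It was the least abundant of the 10 per length in the controls, with 41.2, 11.4 and 30.1 CPM in the controls against 13.8, 5.11 and 27.9 CPM in the mutants, the 5.11 resting on 11 reads. The groups overlapped, with control replicate 2 below mutant replicates 1 and 3 (means 27.6 ± 15.1 and 15.6 ± 11.5 CPM, SD, n = 3 each). Its log2 fold change of -0.78 (SE 0.63, edgeR unadjusted p = 0.246) moved to -0.42 on dropping mutant replicate 2, to -1.48 on dropping mutant replicate 3 and to -0.37 on dropping control replicate 1. The neighbouring family genes Slco1a5, Slco1a1 and Slco1a6 were close to undetected, with at most 21, 1 and 1 reads in any library. Slco2b1 (chr7:99657804-99711340, minus strand) encodes OATP2B1, a carrier of sulphated steroids. Control libraries showed 246.7, 31.4 and 149.6 CPM and mutant libraries 57.5, 44.2 and 99.1 CPM, so that control replicate 2 was the lowest of all 6 libraries. Between means of 142.6 ± 107.9 and 66.9 ± 28.7 CPM (SD, n = 3 each) edgeR gave a log2 fold change of -1.08 (SE 0.64, unadjusted p = 0.124). Without Smad4f/f replicate 1 it was -0.43.

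The 3 efflux pumps had lower means in Smad4-iECKO, and in each the groups overlapped through Smad4f/f replicate 2. Abcb1a (chr5:8660077-8748575, plus strand) encodes the P-glycoprotein of rodent barrier endothelium, which expels lipophilic drugs. Its levels were 303.0, 48.3 and 147.5 CPM in the controls against 59.2, 94.4 and 97.9 CPM in the mutants, with control replicate 2 lowest of all. Means of 166.3 ± 128.4 and 83.8 ± 21.4 CPM (SD, n = 3 each) gave a log2 fold change of -0.99 in edgeR (SE 0.57, unadjusted p = 0.117), and only -0.23 without Smad4f/f replicate 1. Of the distinct 50-base words in Abcb1a transcripts 22.5% also occur in transcripts of other genes, 16.3% in its near-copy Abcb1b, so reads could be split between them. Abcb1b was low, with 4.10, 1.40 and 2.39 CPM in the controls against 6.83, 0 and 9.25 CPM in the mutants, the 0 being below the floor of 1.39 CPM. Summing both genes gave 168.9 ± 129.8 and 89.2 ± 21.1 CPM (SD, n = 3 each), a log2 ratio of means of -0.92.

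Abcg2 (chr6:58584523-58695676, plus strand) encodes BCRP, a pump for sulphate conjugates, urate and drugs. Its CPM values were 276.1, 61.6 and 123.1 in control libraries and 57.4, 53.5 and 89.3 in mutant libraries. Mutant replicate 3 exceeded control replicate 2, and otherwise the controls were above the mutants (means 153.6 ± 110.5 and 66.7 ± 19.7 CPM, SD, n = 3 each). Its log2 fold change was -1.20 (SE 0.51, edgeR unadjusted p = 0.0445) and -0.47 without Smad4f/f replicate 1. Abcc4 (chr14:118482692-118706219, minus strand) encodes MRP4, which exports cyclic nucleotides, prostaglandins and conjugates. Control libraries had 78.2, 16.3 and 55.2 CPM of it, mutant libraries 15.6, 13.0 and 27.4 CPM. The same pair of libraries, control replicate 2 and mutant replicate 3, crossed (means 49.9 ± 31.3 and 18.7 ± 7.68 CPM, SD, n = 3 each). The log2 fold change was -1.40 (SE 0.56, edgeR unadjusted p = 0.0331) and -0.92 without Smad4f/f replicate 1.

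Tfrc (chr16:32608920-32632794, plus strand) encodes transferrin receptor 1, which takes iron-loaded transferrin into endothelial and dividing cells. Levels of 460.4, 177.8 and 366.5 CPM in the controls stood against 193.2, 24.6 and 195.7 CPM in the mutants. Control replicates 1 and 3 lay above the mutants, control replicate 2 lay just under mutant replicates 1 and 3, and mutant replicate 2 was far below all others, on 53 reads. For means of 334.9 ± 143.9 and 137.9 ± 98.1 CPM (SD, n = 3 each) the edgeR log2 fold change was -1.27 (SE 0.67, unadjusted p = 0.0915). Without Smad4-iECKO replicate 2 it was -0.81. Red cell precursors and cycling cells also carry this receptor. Over an erythroid list, of which 3 of 10 genes passed the filter and the globin genes Hba-a1, Hba-a2, Hbb-bs and Hbb-bt were listed at 0, summed levels ran from 1.11 to 53.8 CPM in Smad4f/f and from 1.39 to 32.2 CPM in Smad4-iECKO, and over 10 cell cycle genes from 134.1 to 793.6 and from 232.9 to 401.3 CPM; their part in the Tfrc values was not tested. Tfr2, the hepatic iron-sensing receptor, was at 4.69 ± 2.04 and 11.6 ± 14.1 CPM (SD, n = 3 each), the second mean resting on 27.9 CPM in Smad4-iECKO replicate 2.

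**Figure D1:**
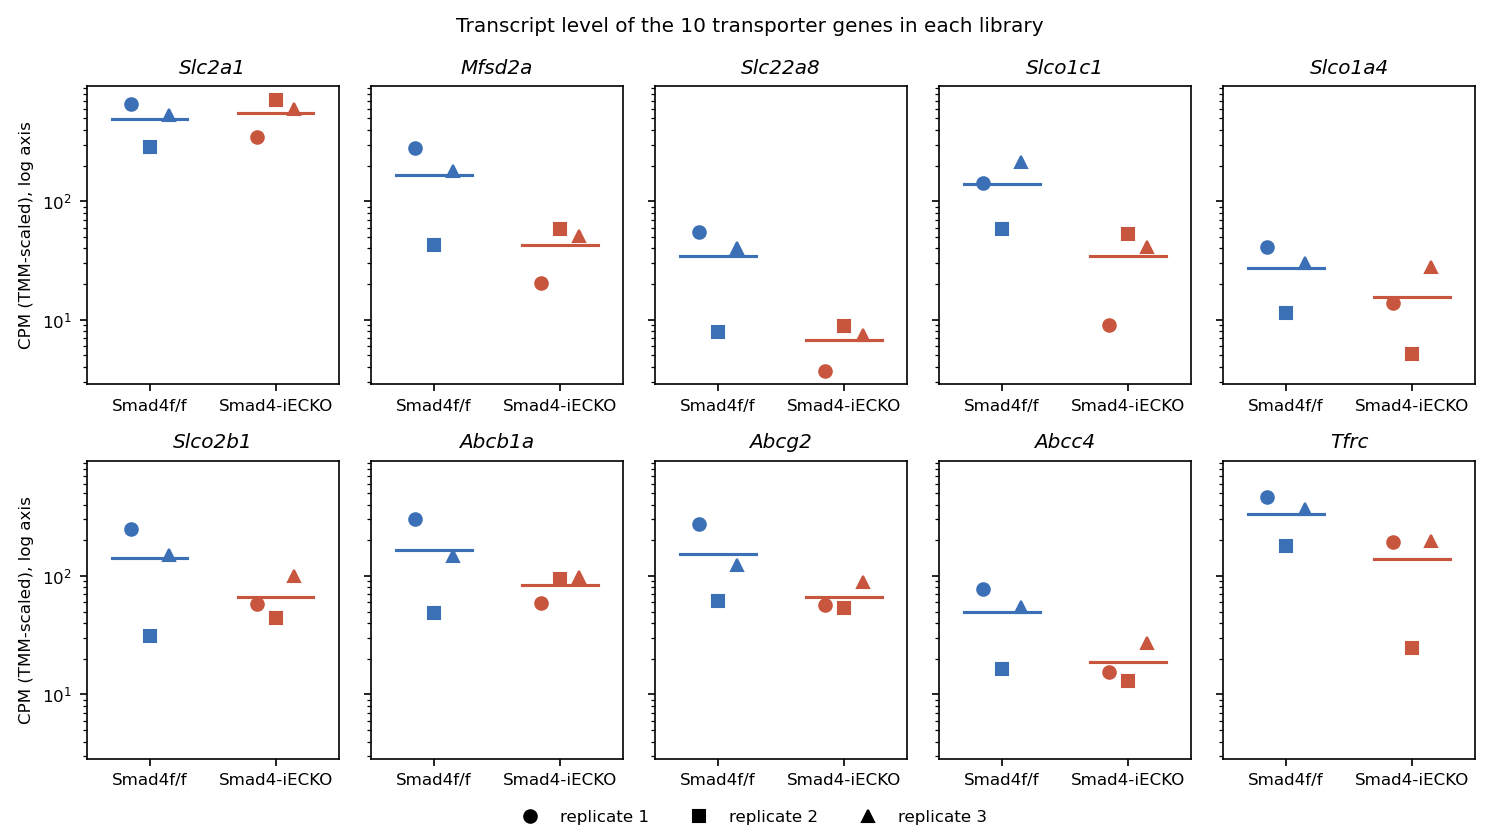
TMM-scaled CPM (log axis) of each of the 10 genes in the 3 Smad4f/f and 3 Smad4-iECKO libraries, with the symbol giving the replicate and the line the group mean. Smad4f/f replicate 2 is the lowest control library in every panel, and the groups are separate for Slco1c1 only.

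The control libraries kept one order in nearly all of the genes. Smad4f/f replicate 2 was the lowest control for 10 of 10 and Smad4f/f replicate 1 the highest for 9 of 10, Slco1c1 being the exception. In the mutants the lowest library was replicate 1 for 5 genes and replicate 2 for the other 5. The highest control exceeded the lowest 7.87-fold for Slco2b1, 6.99-fold for Slc22a8 and 6.62-fold for Mfsd2a, but 2.32-fold for Slc2a1 and 2.59-fold for Tfrc. In the mutants this ratio was largest for Tfrc (7.95-fold), Slco1c1 (5.85-fold) and Slco1a4 (5.46-fold) and smallest for Abcb1a (1.66-fold).

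Per kilobase of exon, Slc2a1 was the most abundant of the 10 in both groups, at 141.3 ± 54.9 CPM per kb in Smad4f/f and 158.6 ± 54.5 in Smad4-iECKO (SD, n = 3 each). Mfsd2a followed in the controls at 74.6 ± 53.3 CPM per kb, ahead of Tfrc (54.1 ± 23.3), Abcb1a (30.3 ± 23.4), Slco1c1 (26.7 ± 15.04), Slco2b1 (23.9 ± 18.1), Abcg2 (18.8 ± 13.5), Slc22a8 (8.77 ± 6.16), Abcc4 (7.81 ± 4.90) and Slco1a4 (4.30 ± 2.35). Among neighbours in this order only Slc2a1 and Mfsd2a, and by a small margin Tfrc and Abcb1a, differed by more than the larger of their SDs. In Smad4-iECKO the level of Mfsd2a per kilobase was 19.1 ± 8.81, that of Slco1c1 6.64 ± 4.39 and that of Slc22a8 1.71 ± 0.678 CPM per kb. Slco1c1 ranked below Slco2b1 and Abcg2 here and Slc22a8 ranked last, and in this group only Slc2a1 stood clear of its neighbour.

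Because the libraries held different amounts of endothelial RNA, each gene was also set against the mean log2 CPM of the 30 endothelial genes in the same library. That mean was 8.31, 5.76 and 7.36 in Smad4f/f replicates 1, 2 and 3 and 6.58, 6.98 and 7.28 in Smad4-iECKO. The mean of the 10 transporters, minus it, was -0.79, -0.36 and -0.34 in the controls and -1.50, -1.71 and -1.27 in the mutants, so the mutants lay below all controls. Relative to the endothelial list 6 of the 10 were lower in every mutant than in every control library, against 0.668% of all genes, which again is a share among genes chosen from this contrast. The median difference was -0.90 for the 10 and 0.15 over all genes. The list itself was not uniform: the differences of its 30 genes ran from -3.37 (Myct1, with 0 reads in Smad4-iECKO replicate 2) to 0.93 (Mmrn2), and 4 of them (Sox17, Adgrl4, Myct1 and Tek) were lower in all mutants.

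On this scale the control replicates drew together for several genes. Mfsd2a was at -0.18, -0.35 and 0.13 in the controls and at -2.21, -1.12 and -1.62 in the mutants, a difference of -1.52 in log2 units. Slc22a8 was at -2.53, -2.78 and -2.04 against -4.67, -3.83 and -4.36, a difference of -1.84. Control replicate 2, which lay among the mutants in CPM for both, was above all mutants here. Slco1c1 was at -1.14, 0.10 and 0.38 against -3.40, -1.25 and -1.91, the largest difference at -1.96, with a narrow gap between control replicate 1 and mutant replicate 2. Abcb1a was at -0.07, -0.16 and -0.16 against -0.69, -0.42 and -0.66, a difference of -0.46 with little spread in either group. Abcg2 (difference -0.78) and Abcc4 (-1.02) were also lower in all mutants, while Slco2b1 (-0.54), Slco1a4 (-0.75) and Tfrc (-1.47) overlapped. In these 3 genes mutant replicate 2 was the lowest mutant library, and without it the differences were -0.26 for Slco2b1, -0.09 for Slco1a4 and -0.46 for Tfrc. Slc2a1 was at 1.07, 2.41 and 1.69 in the controls and at 1.86, 2.51 and 1.95 in the mutants, a difference of 0.38 (0.18 without mutant replicate 2) with the groups overlapping.

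**Figure D2:**
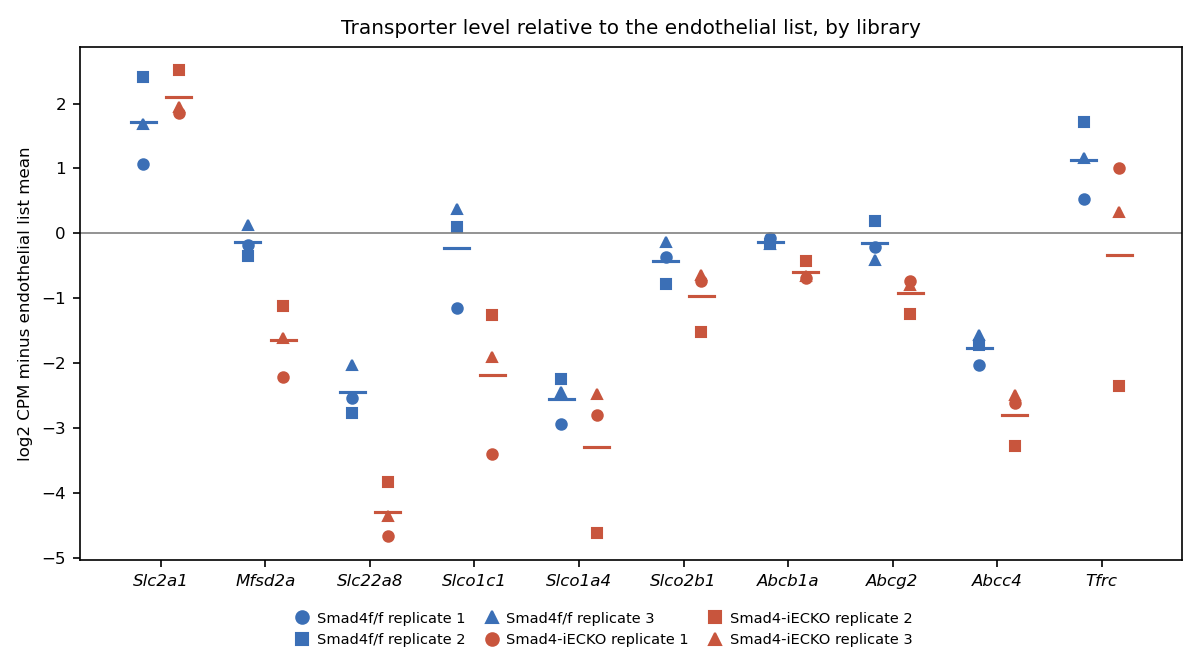
Each gene's log2 CPM minus the mean log2 CPM of the 30 endothelial genes in the same library, for the 3 Smad4f/f (blue) and 3 Smad4-iECKO (red) libraries, with lines at the group means. Mfsd2a, Slc22a8, Slco1c1, Abcb1a, Abcg2 and Abcc4 have all mutant points below all control points, and Slc2a1 does not.

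**Figure D3:**
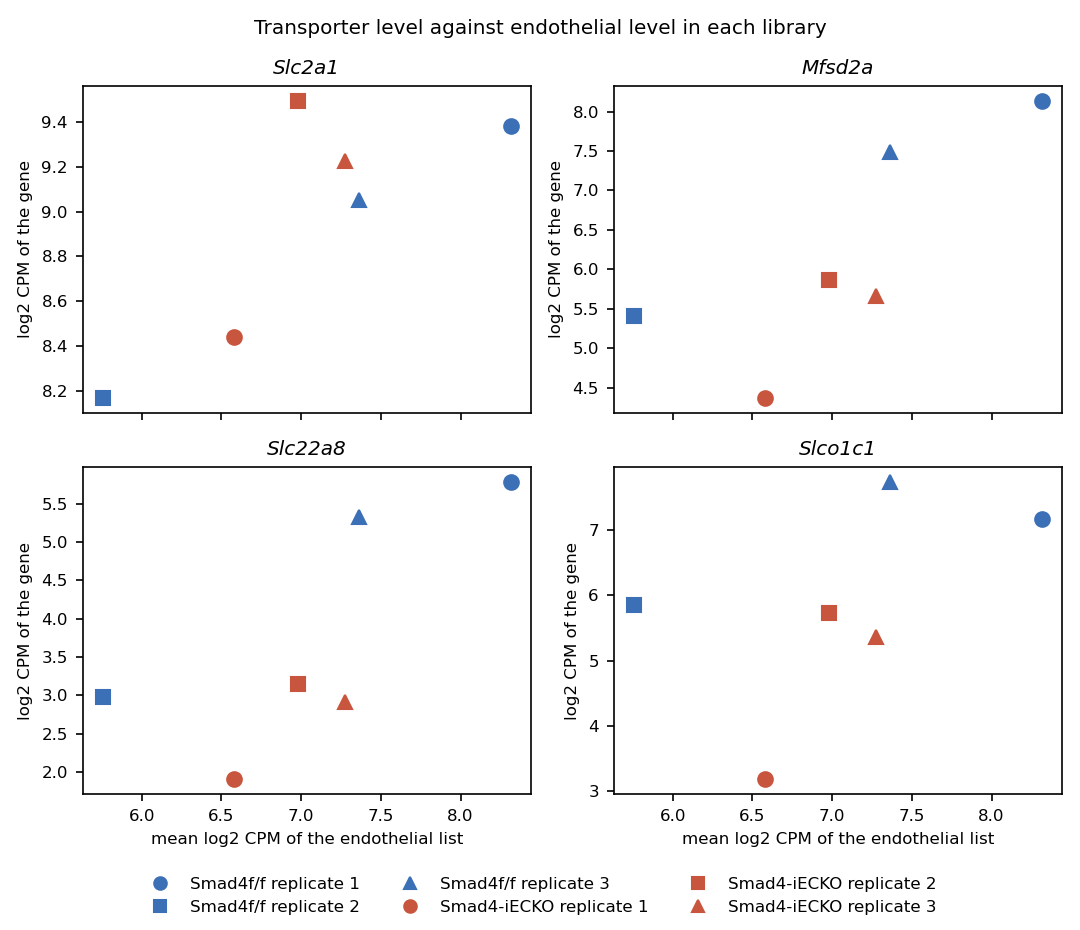
Log2 CPM of 4 genes against the mean log2 CPM of the endothelial list, 1 point per library. Control points climb with the endothelial level from Smad4f/f replicate 2 for Mfsd2a and Slc22a8. In the same panels mutant libraries, with endothelial levels of 6.58 to 7.28, lie at or near the level of that control library or below it. In the Slc2a1 panel all mutant libraries lie above that control library.

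The title prefix divided the fold changes. Between the 4 prefix 38 libraries, 2 per group, all 10 genes had a log2 fold change below 0. Their median was -1.50, against -0.0098 over all genes tested there. EdgeR called 0 of 10 (0% of 14600 genes tested in these libraries were called). There Slc22a8 was at -3.11 (SE 0.42), Slco1c1 at -2.85 (0.65), Mfsd2a at -2.72 (0.47) and Slc2a1 at -0.36 (0.36). Between the prefix 40 libraries, 1 per group and so with no test, 5 of the 10 log2 ratios were below 0. The median of the 10 was 0.020, against -0.082 over all genes. Slc22a8 had a ratio of 0.17 there, Mfsd2a of 0.45, Abcb1a of 0.97 and Slc2a1 of 1.33 on the log2 scale, while Slco1c1 was at -0.13, Slco1a4 at -1.15 and Tfrc at -2.85. The control of this pair is the library with the lowest endothelial level, and the mutant is the shallow one. Set against the endothelial list, 8 of the 10 were below 0 within both prefixes, Slc2a1 was above 0 within both and Slco1a4 differed in sign between them (0.065 and -2.37). The relative differences in prefix 38 and prefix 40 were -1.89 and -0.77 for Mfsd2a, -2.23 and -1.06 for Slc22a8, and -2.27 and -1.35 for Slco1c1. Their medians over the 10 were -0.51 and -1.21.

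**Figure D4:**
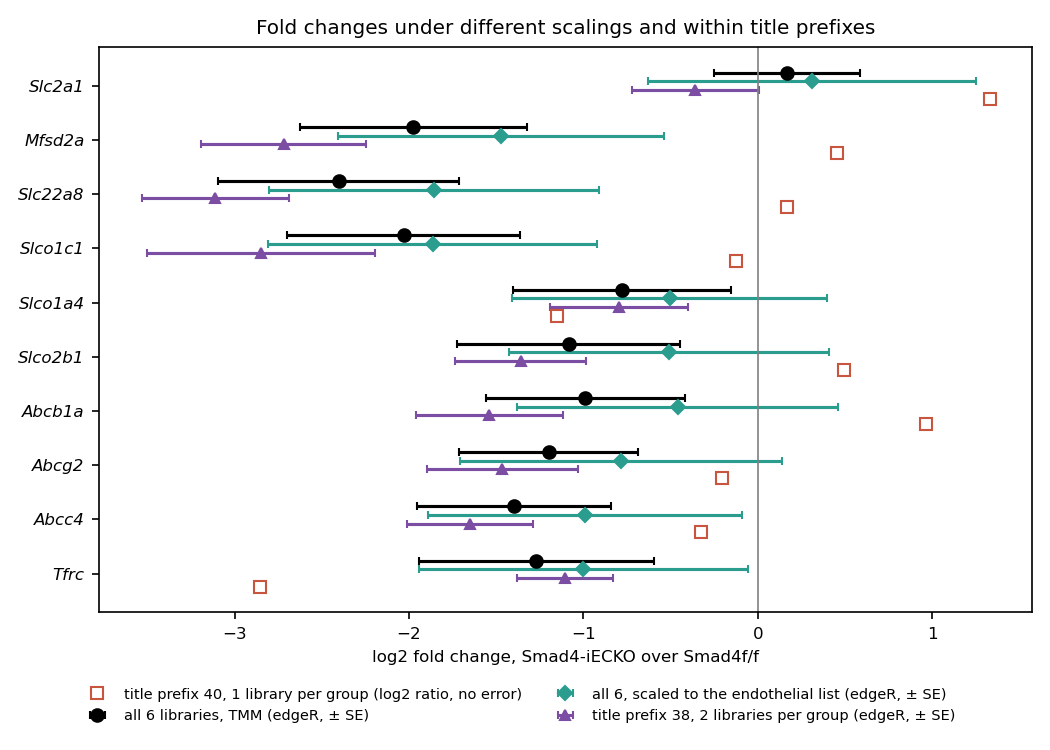
Log2 fold change of Smad4-iECKO over Smad4f/f for each gene from all 6 libraries with TMM scaling, from all 6 scaled to the endothelial list, and from the prefix 38 libraries (bars are ± 1 standard error), with the log2 ratio of the 2 prefix 40 libraries as open squares without error. Slc22a8, Slco1c1 and Mfsd2a lie lowest in the 3 fits, and the prefix 40 squares of Mfsd2a and Slc22a8 lie above 0.

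The authors' deposited table gave smaller fold changes with smaller errors and more calls. An adjusted p under 0.05 with a lower level in Smad4-iECKO was listed there, in the authors' deposited table, for 7 of the 10, against 5.69% of the 14225 genes with an adjusted p there. That table listed Slc22a8 at a log2 fold change of -1.75 (SE 0.298, adjusted p = 5.94e-07), Mfsd2a at -1.46 (0.297, adjusted p = 5.84e-05) and Slco1c1 at -1.48 (0.300, adjusted p = 5.43e-05). Abcc4, Abcg2, Tfrc and Abcb1a had adjusted p of 0.00105, 0.00335, 0.0254 and 0.0452 in the authors' deposited table. Slco2b1 (0.0503), Slco1a4 (0.151) and Slc2a1 (0.630) did not pass there. The count table held 18 columns, and the 3 columns of each sample were identical in every gene. A DESeq2 fit took all 18 columns as samples, with a normal prior on fold changes. It put Slc22a8 at -1.74 (SE 0.296) and called the same number of the 10 genes, 7. That fit counts each library 3 times, and it called 2178 of the 18526 genes with an adjusted p. With 1 column per sample the same fit gave -1.20 (SE 0.343) for Slc22a8. It called 0 of the 10, and 10 of 19645 genes. Which columns entered the authors' deposited table is not given in the sources used here.

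Other transport genes were described from 7 lists holding 143 genes, of which 119 passed the filter. EdgeR called 0 of the 119 in either direction; 68 had a log2 fold change below 0 and 51 above, and their median was -0.083 against -1.23 for the 10 transporters. Sugar carriers other than Slc2a1 (11 tested) had a median of -0.15, and lipid uptake and export genes (27 tested) a median of -0.054. Organic anion and thyroid hormone carriers outside the 10 (9 tested) had a median of -0.088, carriers of organic cations, nucleosides and vitamins (18 tested) of -0.099. Iron handling genes (25 tested, 19 below 0) had a median of -0.19 and other transcytosis receptors (13 tested) of -0.22. Of the other ABC efflux pumps 12 of 16 tested were above 0, with a median of 0.32, while the 3 pumps among the 10 were below 0. The 10 were chosen with this contrast in view, so nothing is read from their distance to these lists.

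An unadjusted p under 0.05 with a lower mean in Smad4-iECKO was found for 3 of the 119, where 0.390% of all genes met this, and none of the 119 had one with a higher mean. Slc40a1, the iron exporter ferroportin, had 339.0, 52.6 and 228.4 CPM in the controls and 51.0, 61.8 and 91.0 CPM in the mutants (log2 fold change -1.60, SE 0.59). Slc39a8, the zinc, manganese and iron importer ZIP8, was at 168.8 ± 144.9 and 62.7 ± 18.5 CPM (SD, n = 3 each; -1.43, SE 0.63). Bsg, the basigin that escorts monocarboxylate carriers to the membrane, was at 637.2 ± 455.9 and 278.2 ± 47.2 CPM (SD, n = 3 each; -1.20, SE 0.52). In all of them Smad4f/f replicate 2 lay among the mutants. Fth1, the ferritin heavy chain that stores iron, was below all controls in every mutant (215.9 ± 64.4 and 132.7 ± 38.2 CPM, SD, n = 3 each), as were the taurine carrier Slc6a6 (521.4 ± 79.6 and 334.7 ± 80.7 CPM) and the endothelial lipase gene Lipg (8.44 ± 4.29 and 3.93 ± 0.777 CPM). The fatty acid transport protein Slc27a1 was above all controls in every mutant, at 116.1 ± 23.8 and 193.7 ± 79.8 CPM (SD, n = 3 each). All mutants lay below all controls for 2 of 25 iron handling genes, 1 of 27 lipid genes and 1 of 18 cation, nucleoside and vitamin carriers. Over all genes tested 2.83% showed this. The reverse was found for 1 of the 27 lipid genes and for no gene of the other lists, against 2.49% of all genes. Nothing is read from these counts. The heme and choline carrier Mfsd7c (Flvcr2) and the riboflavin carrier Slc52a3 had log2 fold changes of -1.27 (SE 0.66) and -1.16 (0.63). Among the other pumps, Abcc3 and Abcc10 stood at 1.07 (SE 0.68) and 0.62 (0.45). Abcc3 was low, at 1.67 ± 0.878 and 3.52 ± 0.986 CPM (SD, n = 3 each), with 8 reads in Smad4-iECKO replicate 2. Abcc10 was at 36.1, 59.7 and 74.2 CPM in the controls and 62.3, 146.4 and 54.5 CPM in the mutants. Only the shallow mutant library exceeded all controls for it.

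The other genes with the smallest p of their lists were not called either, and their values follow with the SE in brackets. The urate carrier Slc2a9, the glucose carrier Slc2a12 and Slc45a1, a sugar carrier, had log2 fold changes of 0.90 (SE 0.57), -1.01 (0.87) and 0.79 (0.84). The lipoprotein receptor Lrp1 was at 0.73 (0.41), the prostaglandin carrier Slco2a1 at 0.55 (0.59), its relative Slco3a1 at 0.30 (0.36) and the thyroxine-binding protein Ttr at 0.53 (0.72). Igf2r and Ager, receptors for IGF2 and for glycated proteins, were at 0.46 (0.34) and 0.60 (0.52). Only the shallow mutant library exceeded all controls for Lrp1, Ager and Slc45a1. The values above 0 of Ager and Slc45a1 rest on that library. For Lrp1 mutant replicates 1 and 3, at 527.5 and 514.8 CPM, were also above the control mean of 429.1 CPM. Slc2a12 had no reads in the shallow library. For Slc2a9, Slco2a1, Slco3a1, Ttr and Igf2r, mutant replicate 3 exceeded all controls.

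**Figure D5:**
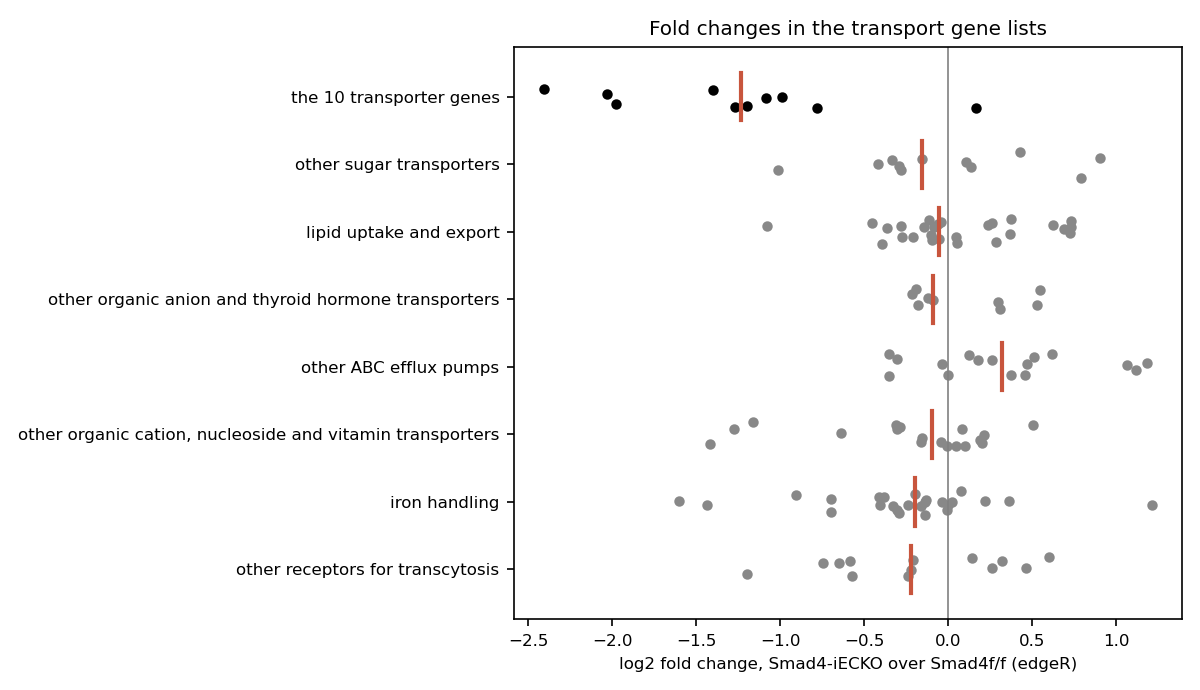
Log2 fold change of Smad4-iECKO over Smad4f/f (edgeR, all 6 libraries) for the 10 transporters and for each tested gene of 7 other transport lists, with vertical bars at the medians. The median is -1.23 for the 10, which were chosen with this contrast in view, and between -0.22 and 0.32 for the other lists.

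The genes most like the 10 over the 6 libraries were sought by correlation. Likeness was the Pearson r between a gene's log2 CPM and the mean of the 10 genes' standardized log2 CPM, over 10589 genes with a mean of at least 10 CPM. Slc40a1 had the highest r, at 0.995, and high values were also found for the zinc exporter Slc30a1 (0.991), the lipoprotein lipase inhibitor Angptl4 (0.988), the transcription factor Tsc22d1 (0.979) and Mfsd7c (0.979). The mean of the endothelial list had an r of 0.860. Within the 10, Abcc4 (0.985) and Abcg2 (0.966) lay closest to their common pattern, and Slco1c1 (0.784), Tfrc (0.648) and Slc2a1 (0.545) farthest from it. These 6 points share the libraries, their depth and their endothelial content.

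Of 12 lists for other cells or for cycling, 1 had summed levels that did not overlap between the genotypes. Summed levels of 12 microglia and macrophage genes were 36.8 to 61.3 CPM in Smad4f/f and 84.1 to 117.1 CPM in Smad4-iECKO, without overlap. A log2 fold change above 0 was found for 11 of the 12, against 6923 of all 14362 genes tested. All mutants lay above all controls for 4 of the 12, against 2.49% of all genes. Nothing is read from 1 such list among 12. Summed levels of 12 pericyte genes ran from 665.1 to 3011 CPM in Smad4f/f and from 1161 to 2104 CPM in Smad4-iECKO. They were lowest in Smad4f/f replicate 2 and highest in Smad4f/f replicate 1. The summed levels of the 10 transporters had the same lowest and highest library. Gene by gene, however, Smad4f/f replicate 2 was the lowest of all libraries for only 3 of the 10 transporters. Pigment epithelium cells also carry Slc2a1. Of 10 genes listed for them 4 (Rpe65, Best1, Lrat and Mlana) were below the filter and 6 passed it. Of the 6, 5 had a log2 fold change above 0, as did 6923 of all 14362 genes tested. Rlbp1, which passed, is on the Mueller glia list too. It held 9637 reads over all libraries, against 523 for Dct, the next of the 6, so their sum rests mostly on Rlbp1. Summed levels of the 6 ran from 83.1 to 145.2 CPM in Smad4f/f and from 115.9 to 164.6 CPM in Smad4-iECKO, which overlapped. Summed levels of 12 rod genes ran from 5040 to 9520 CPM in Smad4f/f and from 5998 to 7642 CPM in Smad4-iECKO. Those of 10 Mueller glia genes ran from 1357 to 2415 and from 1495 to 2698 CPM. The part of any of the listed cells in the transporter values, Slc2a1 included, was not tested.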

How the data were processed

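RNA from 6 samples was sequenced after TruSeq library preparation, per the labels' protocols. The tools named in the submitters' processing notes are STAR and DESeq2, with the mm10 build. Their versions, the counting step and the gene models were not given in the sources used here. The authors deposited raw read counts per gene in 18 columns, 3 for each sample and identical in all 24421 genes, so 1 column per sample was used. The authors' deposited comparison table holds, per the file headers, a mean normalized signal, log2 fold changes, their errors, the score of the test, and p-values before and after adjustment. The whole-number counts were tested with edgeR 4.0.16 (R 4.3.3), quasi-likelihood F-test, TMM scaling, filterByExpr (minimum count 10, minimum total 15) and Benjamini-Hochberg adjustment over 14362 genes at 0.05. CPM values are TMM-scaled. Log2 CPM for relative levels used an offset of 0.5 counts. Standard errors are the log2 fold change divided by the square root of F.

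The genotype label gave the groups. Replicate numbers follow accession order and pair nothing. Alternatives were other scalings and filters, DESeq2 1.42.0, limma-voom (limma 3.58.1), the title prefix as a block, an endothelial covariate, counts thinned to equal depth, the prefix 38 libraries by themselves and dropping each library. DESeq2 fits with a normal prior were added after seeing the data. The tests were tried on simulated counts.

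The 10 genes, the lists and the tests were chosen with earlier results of these data known. Named genes were the 10, their near-identical relatives, Smad4, for each transport list any gene past the threshold or else the 3 with the smallest p, and the 6 genes most like the 10. A gene that this rule names is not reported here. Genes singled out beyond this rule (Mmrn2, Sox17, Adgrl4, Myct1, Tek and the pigment epithelium genes) were chosen after their values were seen. Coordinates, exon lengths and shared 50-base words come from GENCODE M21 (mm10). 3 listed symbols were matched through a RefSeq synonym and 1 had no match. Figures were drawn with matplotlib 3.10.9.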

Additional observations from a re-analysis of the deposited data

How the results depend on the processing

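Of the results above, the number of the 10 genes with a log2 fold change below 0 stayed at 9 or 10 under every alternative run, and their median ran from -1.50 to -0.70, or from -1.58 (without Smad4f/f replicate 2) to -0.69 (without Smad4f/f replicate 1) when 1 library was left out. It was -1.14 with the title prefix as a block, and no paired analysis by replicate was possible because replicate numbers follow accession order only. The prefix 40 pair, 1 library per group, was not among these alternatives. There 5 of the 10 log2 ratios were below 0, with a median of 0.020. Scaling to the endothelial list moved the median of all genes to -0.16 and that of the 10 to -0.89. EdgeR's 0 called genes became 12 with DESeq2, 8 with limma-voom and sample quality weights and 10 with DESeq2 and a normal prior. DESeq2 on all 18 columns called 2235 of 18526 genes, and with the prior 2178 of 18526. Of the 10, 7 were called in each of the 18-column fits and 0 in all others, those leaving out 1 library included. Those 18-column fits count each library 3 times. Slc2a1 turned below 0 with quality weights (-0.044) and in prefix 38 alone (-0.36), and ran from -0.11 to 0.43 when 1 library was left out. The median relative to the endothelial list was -1.17 with 8 core endothelial genes and -0.51 in prefix 38, and -1.17 to -0.59 when 1 library was left out. The number of genes lower in all mutants on that scale was 0 with rod genes as the reference. The causes were not tested. Depth limits Slco1a4, Slc22a8 and Abcc4 most, with 11, 19 and 28 reads in Smad4-iECKO replicate 2.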
